A study of Homo sapiens with 14 samples.

Results

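The genes described here encode the nuclear subunits of the mitochondrial respiratory chain and of the ATP synthase, together with some of their assembly factors. They are all genes of the array whose symbol starts with NDUF, UQCR, ATP5, SDH (SDHA to SDHD) or COX followed by a number from 4 to 8. This rule gave 73 of the 11963 genes that the array reads with a probe set of a single symbol. By role, 28 of them encode subunits of complex I, 3 of complex II, 6 of complex III, 12 of complex IV and 15 of the ATP synthase (complex V). The other 9 are 5 assembly factors of complex I, the ATP synthase inhibitor ATP5IF1, the supercomplex factor COX7A2L, a pseudogene and an antisense RNA. Each gene was read through the probe set with the highest mean over all arrays, and 68 of the 73 passed a filter that kept the upper 60% of genes by mean signal, so that 68 of 7178 tested genes were members. COX7A1, NDUFAF5, NDUFAF7, the pseudogene ATP5MC2P1 and the antisense RNA NDUFB2-AS1 did not pass it.

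Kasumi-1 is a line of human leukaemic myeloblasts whose AML1-ETO fusion joins RUNX1 to RUNX1T1. RNA was taken after 96 h and measured on 14 oligonucleotide arrays in 6 groups. An siRNA against AML1-ETO at 1.5 µM was given by Amaxa nucleofection, an electrical transfection, on 3 arrays, and the luciferase siRNA at 1.5 µM by the same method on 2 arrays. A further array came from cells nucleofected without siRNA. By the lipid reagent siLentFect, the AML1-ETO siRNA at 240 nM was given on 3 arrays and the luciferase siRNA at 240 nM on 3 arrays, and 2 arrays came from untransfected cells. All groups are the same cell line and carry the fusion, and luciferase has no target in these cells. Dose and method changed together and cannot be told apart, and the labels do not say whether replicates were separate cultures, so the p-values measure the spread between these arrays.

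The respiratory chain passes electrons from NADH through complex I, or from succinate through complex II, to ubiquinone, then through complex III and cytochrome c to complex IV, which reduces oxygen. Complexes I, III and IV pump protons across the inner mitochondrial membrane, and the ATP synthase uses the return of these protons to make ATP. Complexes I, III, IV and V combine subunits encoded by mitochondrial DNA with nuclear subunits such as those measured here, whose promoters are known targets of the transcription factors NRF1 and GABP, an ETS factor.

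The promoters of the 4 members with the smallest p for nucleofection against lipid transfection are shown first, because most members that passed any test did so in that comparison. Those of ATP5PF and COX6A1 were added after their values were seen, as the 2 members that fell with nucleofection and hold the NRF1 motif given below. Both hold the ETS motif too. Windows of members that did not pass are not printed, although ATP5ME and SDHD hold both motifs and NDUFB4 holds the NRF1 motif. Each sequence runs from 250 bases before to 50 bases after a start in RefSeq on GRCh38.p14, on the gene's strand. For ATP5PF that start is not the outer end of the gene, whose interval, chr21:25724500-25735653, holds the whole window. The intervals are chr4:139302502-139302801 on the minus strand for NDUFC1, chr7:140696458-140696757 on the plus strand for NDUFB2, chr19:54102605-54102904 on the plus strand for NDUFA3 and chrX:119871582-119871881 on the plus strand for NDUFA1. Those of the other 2 are chr21:25735005-25735304 on the minus strand for ATP5PF and chr12:120437863-120438162 on the plus strand for COX6A1. Capitals mark the NRF1 letters GCGCATGCG, which read CGCATGCGC on the other strand, and the ETS letters CCGGAAG, which read from the other strand as CTTCCGG.
NDUFC1: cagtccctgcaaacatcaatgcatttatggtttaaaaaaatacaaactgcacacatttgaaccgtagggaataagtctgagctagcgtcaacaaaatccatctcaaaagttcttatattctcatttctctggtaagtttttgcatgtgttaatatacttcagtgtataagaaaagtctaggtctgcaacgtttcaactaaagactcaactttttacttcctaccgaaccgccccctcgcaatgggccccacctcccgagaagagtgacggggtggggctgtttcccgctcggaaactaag
NDUFB2: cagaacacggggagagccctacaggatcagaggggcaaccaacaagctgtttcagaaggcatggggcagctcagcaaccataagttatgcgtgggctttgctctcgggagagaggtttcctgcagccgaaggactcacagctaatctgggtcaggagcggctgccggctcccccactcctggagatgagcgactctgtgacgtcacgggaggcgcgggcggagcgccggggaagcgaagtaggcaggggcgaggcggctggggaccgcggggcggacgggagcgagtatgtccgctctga
NDUFA3: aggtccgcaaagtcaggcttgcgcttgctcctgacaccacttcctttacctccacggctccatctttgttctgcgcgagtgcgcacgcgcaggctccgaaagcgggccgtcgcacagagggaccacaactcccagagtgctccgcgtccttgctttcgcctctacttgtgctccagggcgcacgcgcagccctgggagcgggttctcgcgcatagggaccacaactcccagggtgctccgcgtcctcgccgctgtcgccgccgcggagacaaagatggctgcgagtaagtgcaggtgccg
NDUFA1: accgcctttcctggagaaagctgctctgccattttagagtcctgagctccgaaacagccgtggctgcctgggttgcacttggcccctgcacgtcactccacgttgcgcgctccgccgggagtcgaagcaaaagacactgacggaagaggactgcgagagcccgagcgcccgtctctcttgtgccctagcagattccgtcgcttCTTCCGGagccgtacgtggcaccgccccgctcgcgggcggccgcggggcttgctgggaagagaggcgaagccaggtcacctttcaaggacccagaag
ATP5PF: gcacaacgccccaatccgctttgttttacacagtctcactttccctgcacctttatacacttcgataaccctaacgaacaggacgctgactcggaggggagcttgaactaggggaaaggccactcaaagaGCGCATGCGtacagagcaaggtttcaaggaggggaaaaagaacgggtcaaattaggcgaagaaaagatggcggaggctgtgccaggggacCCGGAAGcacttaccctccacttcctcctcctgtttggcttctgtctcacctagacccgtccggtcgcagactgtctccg
COX6A1: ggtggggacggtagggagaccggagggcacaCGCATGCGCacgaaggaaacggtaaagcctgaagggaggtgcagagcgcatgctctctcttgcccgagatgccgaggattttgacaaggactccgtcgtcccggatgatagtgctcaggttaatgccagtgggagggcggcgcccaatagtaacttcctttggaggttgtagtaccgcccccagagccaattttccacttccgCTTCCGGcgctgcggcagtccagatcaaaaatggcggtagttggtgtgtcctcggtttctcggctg

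No capitals stand in the windows of NDUFC1, NDUFB2 and NDUFA3, NDUFA1 holds the ETS letters on the other strand, and ATP5PF and COX6A1 hold both motifs. RefSeq promoters matched 64 of the 73 members and 61 of the 68 tested. The NRF1 letters stood in 10 of these 61 windows (16.4%), against 2.1% of all 27305 promoters, and the ETS letters in 18 of the 61 (29.5%), against 10.7% of all promoters. Among the 21 matched members that fell with nucleofection, 2 held the NRF1 letters and 9 the ETS letters. Among the 40 matched members that did not pass that test, 8 held the NRF1 letters and 9 the ETS letters. A match describes the letters of the window and not a bound site.

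RNA of the 3′ partner of the fusion, RUNX1T1, checked the knockdown. Its signal averaged 299 ± 41.7 in AML1-ETO nucleofection and 704 ± 83.6 in luciferase nucleofection, and 443 ± 52.9 in AML1-ETO lipid and 556 ± 14.4 in luciferase lipid (SD, n = 3, 2, 3 and 3). The difference was -1.24 by nucleofection (adjusted p = 0.00288, limma). The lipid difference of -0.34 missed the threshold (adjusted p = 0.999, unadjusted p = 0.0498, limma). Its arrays did not overlap, at 400 to 502 in AML1-ETO lipid against 540 to 567 in luciferase lipid. The arrays were scaled by the authors to the same mean signal of 138.5, so a shift shared by all RNAs cannot be seen. The labelled scale factors averaged 1.26 in AML1-ETO nucleofection, 1.35 in luciferase nucleofection and 1.12 in nucleofection without siRNA, against 0.84 in AML1-ETO lipid, 0.85 in luciferase lipid and 0.79 in untransfected cells. The myeloid markers KIT (1617 to 2297) and MPO (4784 to 7572) were bright on all arrays, while CD34 lay between 29.1 and 79.5 and ANPEP at 14.5 or below. No mitochondrially encoded gene looked for was on the array under its symbol.

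Over the 6 groups, complexes I, III, IV and V all had their lowest mean level in AML1-ETO nucleofection and their highest in untransfected cells. Levels here are mean log2 signals over a complex's tested genes, after signals below 20 were set to 20. Complex I averaged 8.07 ± 0.0069 in AML1-ETO nucleofection, 8.20 ± 0.027 in luciferase nucleofection and 8.25 in nucleofection without siRNA, against 8.39 ± 0.080 in AML1-ETO lipid, 8.36 ± 0.12 in luciferase lipid and 8.46 ± 0.073 in untransfected cells (SD over arrays). In complex III the levels in the same order of groups were 9.07 ± 0.077, 9.24 ± 0.10 and 9.19 for the nucleofected groups, against 9.45 ± 0.088 and 9.49 ± 0.15 for the lipid groups and 9.58 ± 0.11 for untransfected cells. No nucleofected array reached the level of a lipid-transfected array in complex III, whereas in complex I a luciferase nucleofection array and a luciferase lipid array both stood at 8.22 and nucleofection without siRNA lay above them. Complex IV averaged 9.55 ± 0.057, 9.67 ± 0.027 and 9.69 in the 3 nucleofected groups, against 9.79 ± 0.13 and 9.78 ± 0.084 in the lipid groups and 9.83 ± 0.14 in untransfected cells. The ATP synthase averaged 9.69 ± 0.067, 9.83 ± 0.047 and 9.89 in the nucleofected groups, against 9.96 ± 0.078 and 9.95 ± 0.10 in the lipid groups and 10.05 ± 0.060 in untransfected cells. Complex II, with 3 genes, ranged from 7.25 ± 0.25 in luciferase nucleofection to 7.46 ± 0.12 in untransfected cells, and its arrays overlapped between methods. All tested genes together averaged 6.51 ± 0.067, 6.59 ± 0.023 and 6.52 in the nucleofected groups, against 6.70 ± 0.11 and 6.73 ± 0.025 in the lipid groups and 6.65 ± 0.029 in untransfected cells. The lower mean level with nucleofection was thus shared in direction by the average gene. The untransfected mean was the highest for these complexes and not for all genes, although single lipid arrays lay above an untransfected array in each of complexes I, III, IV and V.

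**Figure D1:**
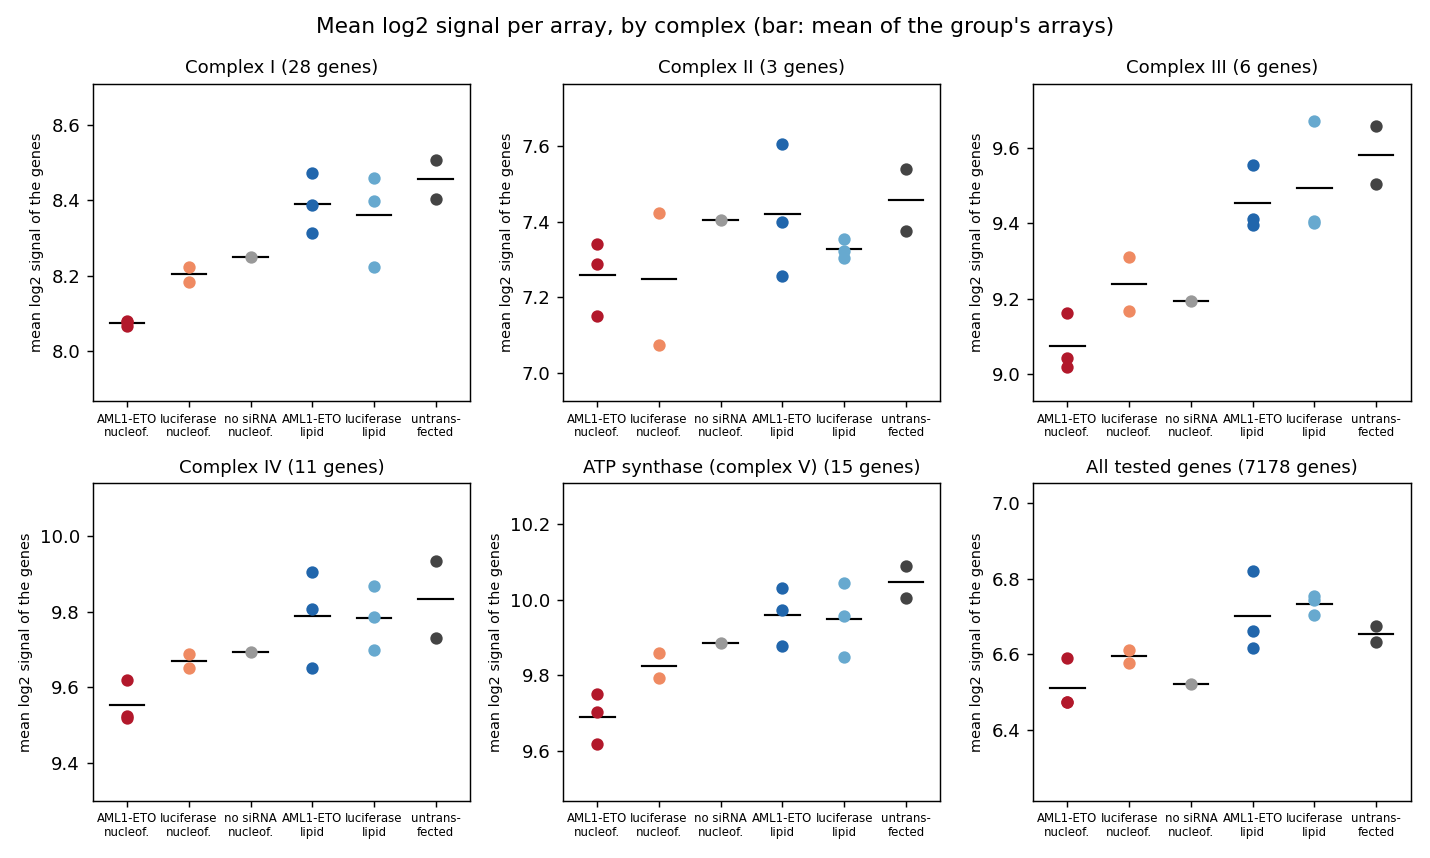
Mean log2 signal per array (vertical axis, log2 units) of the tested genes of each complex and of all tested genes, in the 6 groups; points are arrays and bars are group means. Complex I averaged 8.07 in AML1-ETO nucleofection and 8.46 in untransfected cells, and all nucleofected arrays lie below all lipid arrays in complex III.

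The AML1-ETO siRNA was compared with the luciferase siRNA within each method, and no member passed by either. Differences are of log2 signals, fitted with limma over all 14 arrays, and a gene passed where its Benjamini-Hochberg adjusted p over the 7178 tested genes was below 0.05. Averaged over both methods, 0 of 68 members passed, where 1.66% of all genes did, and 6 members (8.82%) had an unadjusted p below 0.05, where 14.4% of all genes had. The members' median difference was -0.058, against -0.075 over all genes. The 95% interval of the difference lay within ±0.5 for 59 of the 68 members. NDUFC1 had the smallest adjusted p (-0.44 ± 0.14, SE, adjusted p = 0.155), followed by NDUFA8 (0.34 ± 0.11, adjusted p = 0.163). Both encode accessory subunits of complex I. Among the alternatives run, NDUFC1 passed only without AML1-ETO lipid replicate 3 (-0.54, adjusted p = 0.0474).

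By nucleofection alone, 0 of 68 members passed, against 2.62% of all genes, and 8 (11.8%) had an unadjusted p below 0.05, where 18.9% of all genes had. NDUFC1, a small membrane subunit of complex I, had signals of 291, 235 and 264 in AML1-ETO nucleofection, against 451 and 464 in luciferase nucleofection. These groups did not overlap, and nucleofection without siRNA lay between them at 369. Its difference was -0.80 ± 0.20 (SE), a ratio of 0.573, with an adjusted p of 0.0577. It passed under quantile normalization (adjusted p = 0.0309), with arrays centred on their median ratio (0.0462), with all probe sets averaged (0.0476), with a trended robust variance (0.0122) and without AML1-ETO lipid replicate 2 (0.0419) or 3 (0.0301). The lipid arrays are not part of this comparison, and the difference stayed at -0.80 without them. They enter only through the spread shared by all groups. NDUFC1 did not pass in the other alternatives run. NDUFB8, another accessory subunit, had signals of 587, 482 and 487 in AML1-ETO nucleofection, against 739 and 736 in luciferase nucleofection (-0.51 ± 0.17, adjusted p = 0.129). For NDUFAB1, the mitochondrial acyl carrier protein, they were 483, 488 and 509 in AML1-ETO nucleofection, against 688 and 635 in luciferase nucleofection (-0.42 ± 0.14, adjusted p = 0.141). Neither pair of groups overlapped, and neither gene passed, although NDUFAB1 did with a floor of 64 and without the filter (adjusted p = 0.0372 and 0.0394) and NDUFB8 with the trended robust variance (0.0459). Neither passed in the other alternatives run.

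Among the other complexes, the smallest p-values by nucleofection belonged to COX6C and COX6A1 of complex IV (-0.41, adjusted p = 0.19, and -0.34, adjusted p = 0.245). In complex III they belonged to UQCRB and UQCR10 (-0.27 and -0.32, adjusted p = 0.44 and 0.475), and in complex II to SDHD and SDHA (0.44 and -0.29, adjusted p = 0.349 and 0.709). In the ATP synthase, ATP5F1D, the delta subunit of the F1 head, had -0.39 (adjusted p = 0.149) and ATP5F1C, the gamma subunit, -0.23 (adjusted p = 0.39). Among the alternatives run, ATP5F1D passed only with a floor of 64 (adjusted p = 0.0193) and without the filter (0.0232). A second probe set of ATP5F1C gave -0.24 with an adjusted p of 0.0404 when all probe sets were tested, and a dim one gave 0.092, so its probe sets disagreed in sign. Not all members leaned downwards: NDUFA8 had 206, 229 and 233 in AML1-ETO nucleofection, against 171 and 156 in luciferase nucleofection (0.45 ± 0.16, adjusted p = 0.165), with no overlap. All 3 AML1-ETO arrays lay below both luciferase arrays for 23 of 68 members, where 25.3% of all genes did so. The median difference was -0.14 over the members and -0.11 over all genes. Only 22 of the 68 intervals lay within ±0.5, so with 3 against 2 arrays most members' differences were loosely bounded.

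By lipid transfection, none of the 68 members passed (limma), where 0.125% of all genes did, none had an unadjusted p below 0.05, where 4.53% of all genes had, and the smallest adjusted p was 0.999. The largest differences were those of SDHA, the flavoprotein of complex II, and of NDUFA1, an accessory subunit of complex I. SDHA had signals of 137, 143 and 185 in AML1-ETO lipid, against 123, 107 and 87.6 in luciferase lipid (0.55 ± 0.32, 95% interval -0.15 to 1.26). NDUFA1 had 1189, 905 and 701 in AML1-ETO lipid, against 574, 679.7 and 779 in luciferase lipid (0.44 ± 0.21). Groups did not overlap for SDHA and overlapped for NDUFA1. The interval lay within ±0.5 for 47 of the 68 members.

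**Figure D2:**
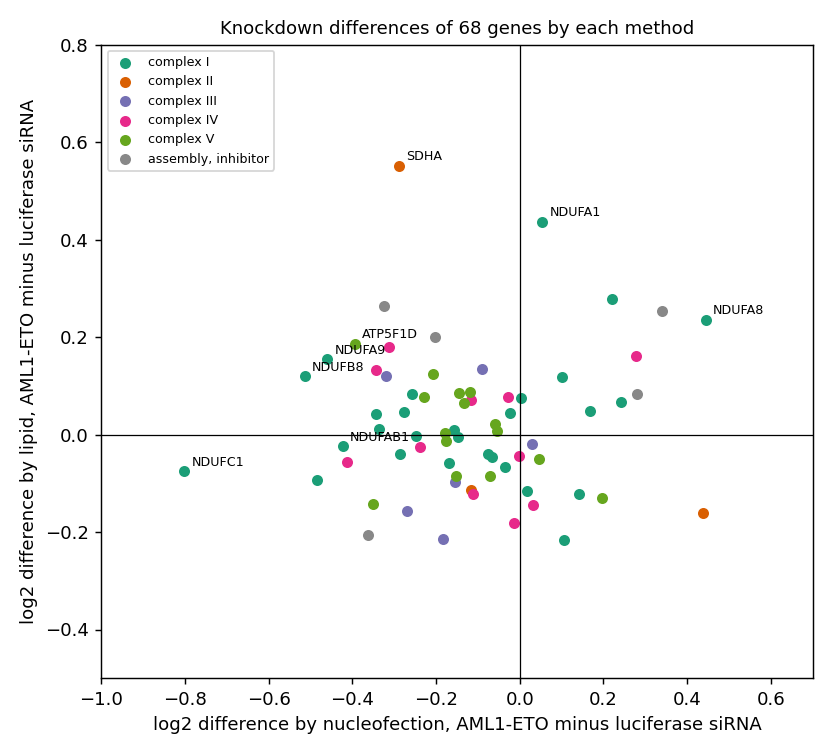
Knockdown differences of the 68 tested genes by nucleofection (horizontal axis) and by lipid (vertical axis), both as log2 difference, AML1-ETO minus luciferase siRNA; each point is a gene, coloured by complex. Points spread from -0.80 (NDUFC1) to 0.45 (NDUFA8) by nucleofection and from -0.22 to 0.55 (SDHA) by lipid, and none passed either test.

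The knockdown differences of the 2 methods were then set against each other in 1 test of their difference. None of 68 members passed (limma), where 0.0557% of all genes did, and 5 (7.35%) had an unadjusted p below 0.05, where 10.8% of all genes had. ATP5F1D had the smallest adjusted p. Its signals were 81.8, 81.8 and 81.2 in AML1-ETO nucleofection, against 115 and 100.3 in luciferase nucleofection, and 129.8, 117 and 119 in AML1-ETO lipid, against 105, 111 and 105 in luciferase lipid. The AML1-ETO arrays lay below the luciferase arrays by nucleofection and above them by lipid, without overlap in either. The difference between methods was -0.58 ± 0.18 (SE, adjusted p = 0.319), and it passed with a floor of 64 (adjusted p = 0.0434) and without the filter on low genes (0.0455). Its second probe set gave -0.42 in this comparison (adjusted p = 0.707 over all probe sets, where the probe set used had 0.0461) and disagreed in sign with the one used in AML1-ETO nucleofection against untransfected cells (0.13, against -0.45 for the probe set used). For ATP5F1C, a second probe set gave -0.42 with an adjusted p of 0.0338 when all probe sets were tested, and the dim probe set gave 0.32.

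Nucleofection against lipid transfection, taken over both siRNAs, was the comparison in which members passed most often. Of 68 members, 23 (33.8%) fell with nucleofection and 0 rose, where 22% of all genes fell and 3.68% rose. The median difference was -0.24 over the members and -0.17 over all genes. In complex I 11 of 28 genes fell, in complex III 3 of 6, in complex IV 4 of 11, in the ATP synthase 3 of 15, in complex II 0 of 3 and among the other tested genes 2 of 5. Every array of nucleofection lay below every array of lipid transfection, within each siRNA, for 20 members (29.4%), where 16.1% of all genes did so, and 15 of the 23 were among them. In bulk RNA, fewer cells of a kind and less RNA per cell cannot be told apart.

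The excess over other genes depended on how the arrays were scaled. Quantile normalization moved the median of the members to -0.049 and that of all genes to -0.0089. Then 6 of 68 members fell (8.82%) and 2 rose (2.94%), where 8.8% of all genes fell and 6.98% rose. With arrays centred on their median ratio the medians were -0.058 over the members and 0.017 over all genes, and 7 members fell (10.3%) and 2 rose (2.94%), where 9.31% of all genes fell and 8.87% rose. The genes that fell under all 3 scalings were 6, namely NDUFA1, NDUFA3, NDUFA13, NDUFB2 and NDUFC1 of complex I and COX7A2 of complex IV. They were 8.82% of the 68 members, where 7.7% of the 7145 genes tested under all 3 scalings fell throughout. Under the 2 other scalings the members' share of falling genes was therefore close to that of all genes. The counts also depended on which array was left out. Without AML1-ETO lipid replicate 2, 23 members fell (33.8%), where 21.6% of all genes did. Without AML1-ETO nucleofection replicate 2, 21 fell (30.9%), where 21.8% of all genes did, and without its replicate 3, 19 fell (27.9%), where 17.4% did. Without luciferase lipid replicate 1, 20 fell (29.4%), where 19.4% of all genes did. Lower counts came from other arrays. Without luciferase nucleofection replicate 2, 12 members fell (17.6%), where 16.5% of all genes did, and without its replicate 1, 13 fell (19.1%), where 14.2% of all genes did. Without luciferase lipid replicate 2, 15 members fell (22.1%), where 16.5% of all genes did, and without its replicate 3, 13 fell (19.1%), where 16.2% of all genes did. With the luciferase siRNA alone 3 members fell (COX7A2L, NDUFA13 and NDUFA3, 4.41%), where 7.04% of all genes did, and within the AML1-ETO siRNA alone 11 did (16.2%), where 11.6% of all genes did, in contrasts added after the data were seen.

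**Figure D3:**
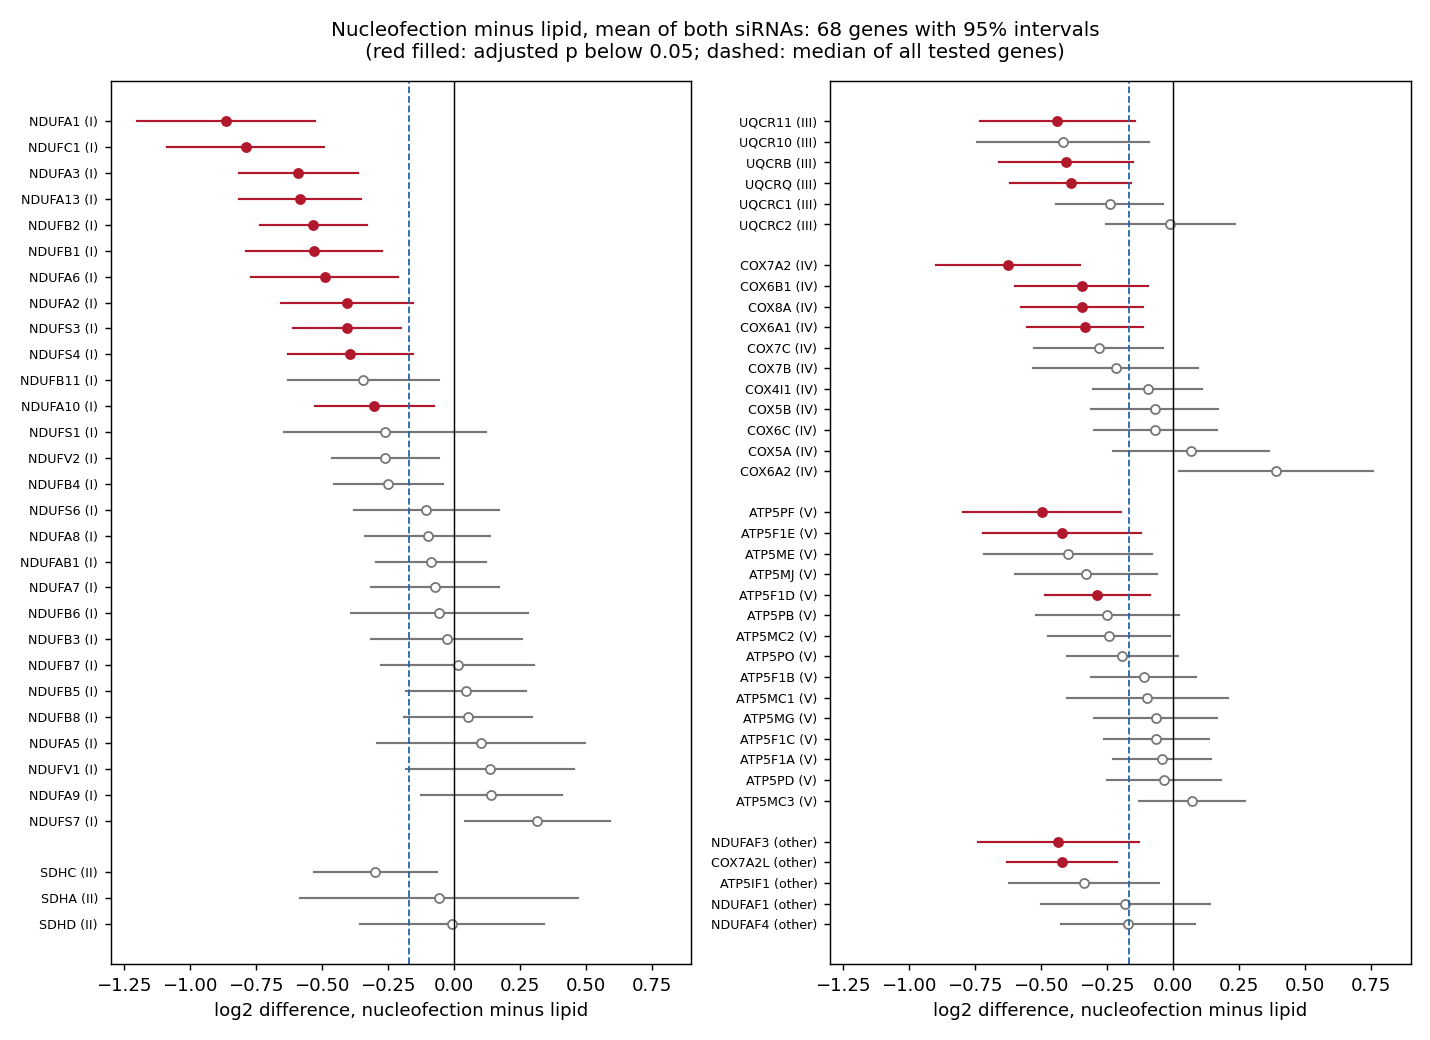
Log2 difference, nucleofection minus lipid over both siRNAs (horizontal axis), of the 68 tested genes with 95% intervals, by complex; filled red points have an adjusted p below 0.05 and the dashed line is the median of all tested genes at -0.17. The differences run from -0.86 (NDUFA1) to 0.39 (COX6A2), and all filled points lie below 0.

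One sign of RNA quality moved with the method. The log2 ratio of the 3′ to the 5′ GAPDH probe sets averaged -0.14 ± 0.039 in AML1-ETO nucleofection, 0.14 ± 0.15 in luciferase nucleofection and -0.043 in nucleofection without siRNA, against -0.27 ± 0.10 in AML1-ETO lipid, -0.27 ± 0.022 in luciferase lipid and -0.20 ± 0.011 in untransfected cells, with 1 AML1-ETO nucleofection array below the highest AML1-ETO lipid array. The ACTB ratio, by contrast, overlapped between methods, at 0.39 ± 0.089 and 0.61 ± 0.33 in the nucleofected siRNA groups, against 0.48 ± 0.15 and 0.35 ± 0.041 in the lipid groups. Of the markers listed for other cell types, EPCAM (-0.96) and KRT8 (-0.58) were lower with nucleofection, 2 of 7 tested (28.6%), where 22% of all genes fell. Of the markers listed for the cell line itself, SPI1 (-0.82) and CD34 (-0.76) were lower, likewise 2 of 7 tested. The summed signal of the 11 markers of other cell types on the array was 419.5 to 433.9 in AML1-ETO nucleofection and 482.0 to 494.7 in luciferase nucleofection. By lipid it was 539.3 to 636.7 in AML1-ETO lipid and 513.8 to 605.1 in luciferase lipid. EPCAM had the highest median signal of them, with 120, 155 and 131 in AML1-ETO nucleofection and 84.3 and 94.5 in luciferase nucleofection. In AML1-ETO lipid it had 238, 181 and 238, and in luciferase lipid 194, 197 and 239. This gene weighs heavily in the sums, which therefore do not show a fall of the markers as a set. ALB, a liver marker, was at 20.7 or below on every array. The part of RNA quality and of these markers in the members' differences was not tested.

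Of the 28 tested genes of complex I, 23 encode accessory subunits. The other 5 are core genes, which carry the electron path and are conserved in bacteria. With nucleofection against lipid, 10 of the 23 accessory genes and 1 of the 5 core genes fell, where 22% of all genes did. The difference between these shares was not tested. NDUFA1, a membrane-anchored subunit needed for assembly of the complex, had signals of 389, 404 and 537 in AML1-ETO nucleofection and 458 and 389 in luciferase nucleofection, against 1189, 905 and 701 in AML1-ETO lipid and 574, 679.7 and 779 in luciferase lipid. All 5 nucleofected siRNA arrays lay below all 6 lipid arrays, and nucleofection without siRNA (576) was at the lowest luciferase lipid array. The difference was -0.86 ± 0.16 (SE), a ratio of 0.55, with an adjusted p of 0.00246. NDUFC1, whose promoter is shown above, had 291, 235 and 264 in AML1-ETO nucleofection and 451 and 464 in luciferase nucleofection, against 567, 456 and 764 in AML1-ETO lipid and 551, 651 and 645 in luciferase lipid. Its luciferase nucleofection arrays overlapped the lowest AML1-ETO lipid array but lay below all luciferase lipid arrays, and the difference was -0.79 ± 0.14 (ratio 0.579, adjusted p = 0.00199).

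NDUFA3, a small accessory subunit, gave 178, 192 and 175 in AML1-ETO nucleofection, 163 and 145 in luciferase nucleofection and 189.5 in nucleofection without siRNA, against 248, 269 and 256 in AML1-ETO lipid and 239.7, 243 and 254 in luciferase lipid. The nucleofected arrays lay below all others, with a difference of -0.59 ± 0.10 (ratio 0.665, adjusted p = 0.00214), and the test passed in all 24 alternatives run. NDUFA13, also known as GRIM-19 for its link to interferon and retinoid induced cell death, gave 598, 679 and 570.2 in AML1-ETO nucleofection and 621 and 527 in luciferase nucleofection, against 1055, 837 and 893 in AML1-ETO lipid and 809, 825 and 923 in luciferase lipid. Again no array overlapped, nucleofection without siRNA (554) lay with the nucleofected arrays, and the difference was -0.58 ± 0.11 (ratio 0.668, adjusted p = 0.00268, passed in all 23 alternatives that gave a value). For NDUFB2, a membrane-arm subunit, the signals were 713, 699 and 706 in AML1-ETO nucleofection and 897 and 784 in luciferase nucleofection, against 1094, 1106 and 1134 in AML1-ETO lipid and 1018, 1109 and 1221 in luciferase lipid. These groups did not overlap either (-0.53 ± 0.094, adjusted p = 0.00212), while the gene's second probe set gave -0.27 with an adjusted p of 0.347 over all probe sets.

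**Figure D4:**
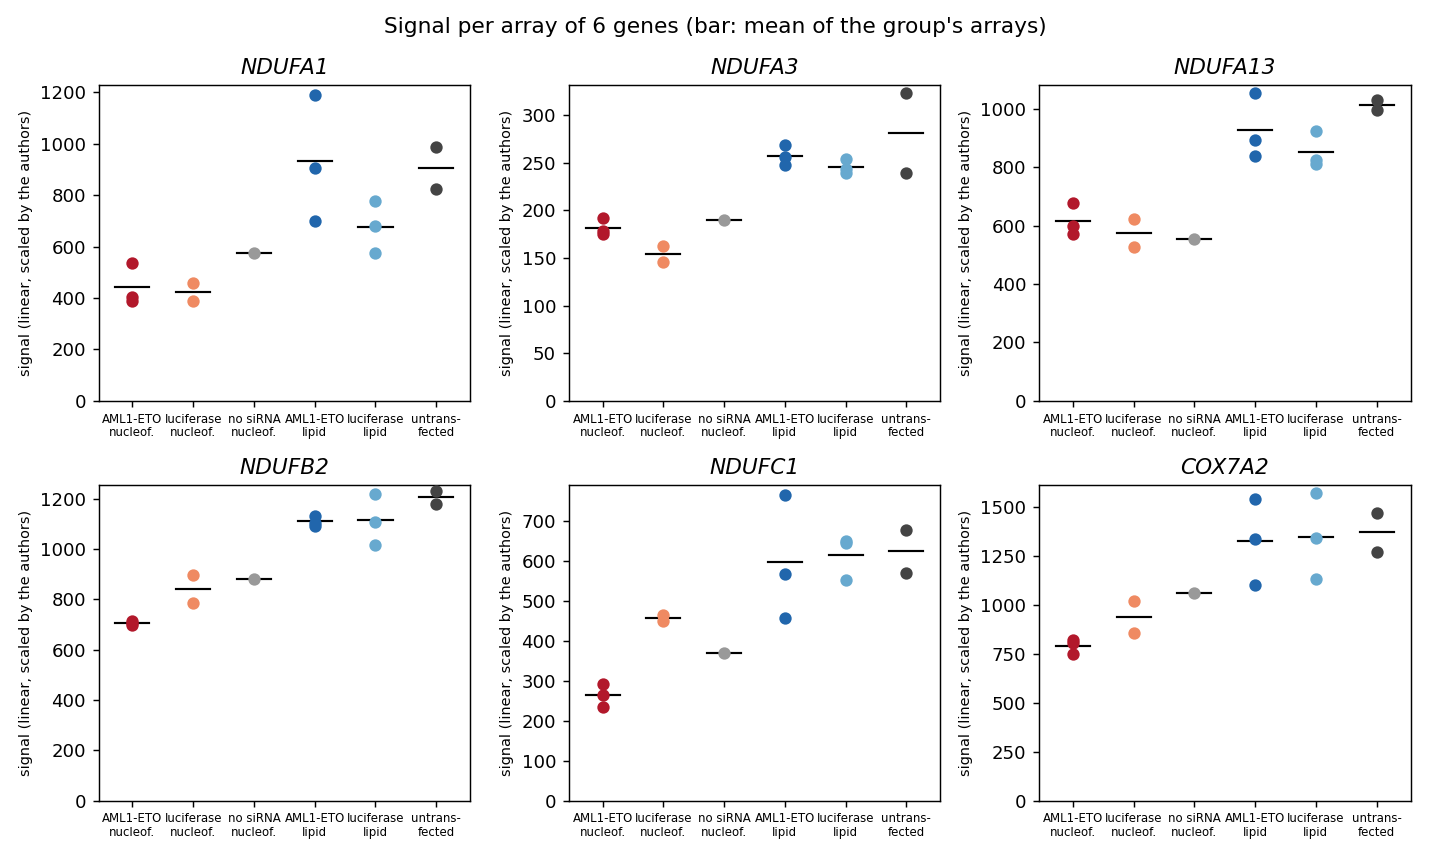
Signal per array (vertical axis, linear and scaled by the authors, starting at 0) of the 6 genes that fell with nucleofection under all 3 scalings, in the 6 groups; points are arrays and bars are group means. For NDUFA3 and NDUFA13 every nucleofected array, at 192 and 679 or below, lies under every lipid and untransfected array.

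The remaining complex I genes that fell did not pass under all 3 scalings. NDUFB1 had a difference of -0.53 (adjusted p = 0.00765), NDUFA6 of -0.49 (0.0166), NDUFA2 of -0.40 (0.0233), NDUFS4 of -0.39 (0.0215) and NDUFA10 of -0.30 (0.0496). NDUFS4 is known from inherited complex I deficiency. NDUFA10 passed in 5 of 24 alternatives only, and a dim second probe set of NDUFA2, with a mean signal of 12.0, gave 0.25. The single core gene that fell was NDUFS3, of the arm that reaches into the matrix, with 355, 334 and 298 in AML1-ETO nucleofection and 359 and 333 in luciferase nucleofection, against 416, 455 and 447 in AML1-ETO lipid and 454, 466 and 435 in luciferase lipid. No array overlapped (-0.40 ± 0.095, adjusted p = 0.00933), but the test did not pass under quantile normalization (adjusted p = 0.398) or median centring (0.12).

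NDUFS7, which holds the last iron-sulphur cluster before ubiquinone, differed in the other direction. It had 145, 116 and 111 in AML1-ETO nucleofection and 104 and 108 in luciferase nucleofection, against 95.4, 97.4 and 110.1 in AML1-ETO lipid and 77.3, 71.9 and 103 in luciferase lipid. Within each siRNA the nucleofected arrays were the higher ones, it was the single member with that pattern (1.47%), where 2.08% of all genes had it, and its difference was 0.32 ± 0.13 (adjusted p = 0.0817). It rose under quantile normalization (0.52, adjusted p = 0.0141) and under median centring (0.50, adjusted p = 0.0148). Of the other core genes, NDUFV1, which binds NADH, had 0.14 (adjusted p = 0.519), NDUFV2 -0.26 (0.0576) and NDUFS1 -0.26 (0.301). NDUFV2 fell with a floor of 64 (adjusted p = 0.00776), no filter (0.0106), the trended robust variance (0.0298) and averaged probe sets (0.0317). NDUFA9, near the ubiquinone site, had 0.14 (adjusted p = 0.421) and rose under quantile normalization (0.43, adjusted p = 0.0408). NDUFB4 had -0.25 (adjusted p = 0.0716), and fell in some alternatives, among them a floor of 64 (0.0141) and the trended robust variance (0.0177).

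In complex III, 3 of 6 genes fell. The small subunits UQCRQ (-0.39 ± 0.11, adjusted p = 0.0195), UQCRB (-0.41 ± 0.12, 0.0242) and UQCR11 (-0.44 ± 0.14, 0.0326) fell, and UQCR10 had -0.42 ± 0.15 (adjusted p = 0.0586). Its core proteins UQCRC1 and UQCRC2, which resemble processing peptidases, had -0.24 (0.0769) and -0.011 (0.953) and did not pass. UQCRC1 fell in 4 alternatives, namely a floor of 64 (adjusted p = 0.0131), no filter (0.0177), the trended robust variance (0.0237) and averaged probe sets (0.0449). UQCRQ had 759, 757 and 901 in AML1-ETO nucleofection and 1013 and 821 in luciferase nucleofection, against 1030.4, 966 and 1129 in AML1-ETO lipid and 1113, 1200.5 and 1311 in luciferase lipid. Within each siRNA its nucleofected arrays were the lower ones. None of these genes passed under either other scaling. Of all alternatives, UQCRQ passed in 19 of 24, UQCRB in 18 of 24 and UQCR11 in 10 of 23.

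In complex IV, COX7A2 had the largest fall. It gave 805, 824 and 748 in AML1-ETO nucleofection and 1019 and 856 in luciferase nucleofection, against 1336, 1100.4 and 1543 in AML1-ETO lipid and 1135, 1341 and 1574 in luciferase lipid. No nucleofected siRNA array reached a lipid array, and nucleofection without siRNA (1062) lay just below them; the difference was -0.62 ± 0.13 (ratio 0.649, adjusted p = 0.00431). COX7A1, the heart and muscle isoform of the same subunit, was at 15.3 or below on every array and was not tested. COX6A1, the common isoform of subunit 6A, fell (a difference of -0.33, adjusted p = 0.0308), whereas COX6A2, its heart and muscle isoform, had 41.2, 55.2 and 50.3 in AML1-ETO nucleofection and 46.7 and 77.7 in luciferase nucleofection, against 52, 45.3 and 36 in AML1-ETO lipid and 39.6, 46.6 and 31.6 in luciferase lipid. These dim signals overlapped (0.39 ± 0.17, adjusted p = 0.108), and COX6A2 rose under median centring (0.58, adjusted p = 0.0412). COX8A (-0.34, adjusted p = 0.0328) and COX6B1 (-0.35, 0.0456) also fell, the first in 9 of 23 alternatives and the last in 5 of 24. COX4I1, COX5A, COX5B, COX6C and COX7B did not pass, with differences of -0.10, 0.068, -0.069, -0.067 and -0.22, and COX7C had -0.28 (adjusted p = 0.0845). COX7C fell, however, with its probe sets averaged (-0.51, adjusted p = 0.00323) and through the probe set left without the shared ones (-0.71, adjusted p = 0.00652).

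The main catalytic genes of the ATP synthase did not pass. ATP5F1B, the beta subunit that forms ATP, had 2193, 2061 and 1915 in AML1-ETO nucleofection and 2167 and 2148 in luciferase nucleofection, against 2098, 2179 and 2351 in AML1-ETO lipid and 2431, 2395 and 2203 in luciferase lipid. These ranges overlapped, and the difference was -0.11 with a 95% interval of -0.31 to 0.089. For ATP5F1A, the alpha subunit, it was -0.042 (-0.23 to 0.14), and for the gamma subunit ATP5F1C -0.063 (-0.26 to 0.13). A second probe set of ATP5F1C gave -0.18, with an adjusted p of 0.00752 over all probe sets. The genes that fell were ATP5PF, coupling factor 6 of the stalk (-0.50 ± 0.14, adjusted p = 0.0215), the small F1 subunit ATP5F1E (-0.42 ± 0.14, 0.0415) and ATP5F1D (-0.29 ± 0.092, 0.0381). ATP5PF passed in 17 of 23 alternatives, ATP5F1E in 4 of 24 and ATP5F1D in 9 of 23. ATP5F1D fell by 0.58 within the AML1-ETO siRNA (adjusted p = 0.0117) and had 0.0038 within the luciferase siRNA (adjusted p = 0.99).

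ATP5MC1, ATP5MC2 and ATP5MC3 encode the same mature subunit of the rotating c ring from separate genes. Their differences were -0.10, -0.24 and 0.072, and none passed. ATP5MC2 had 1168, 1051 and 950.1 in AML1-ETO nucleofection and 1171 and 1028 in luciferase nucleofection, against 1394, 1232 and 1219.9 in AML1-ETO lipid and 1179, 1241 and 1371 in luciferase lipid. Within each siRNA its nucleofected arrays were the lower ones, and those of the other two overlapped the lipid arrays. The remaining stalk and membrane subunits had differences of -0.40 (ATP5ME), -0.33 (ATP5MJ), -0.25 (ATP5PB), -0.19 (ATP5PO), -0.066 (ATP5MG) and -0.034 (ATP5PD), and did not pass. ATP5ME and ATP5MJ fell in some alternatives, among them the trended robust variance (adjusted p = 0.0226 and 0.0174).

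Of complex II, which also belongs to the citric acid cycle, 3 genes were measured and none passed. The membrane anchor SDHC had 229.6, 266 and 191 in AML1-ETO nucleofection and 251 and 240.2 in luciferase nucleofection, against 273, 293 and 270.5 in AML1-ETO lipid and 302, 296 and 307 in luciferase lipid (-0.30 ± 0.11, adjusted p = 0.0604). Its nucleofected arrays were all lower, but its 4 probe sets disagreed, one giving -0.38 (adjusted p = 0.0154 over all probe sets) and another 0.37 (adjusted p = 0.0942). SDHC fell in some alternatives, among them a floor of 64 (adjusted p = 0.0370) and the trended robust variance (0.0329). SDHD and SDHA had -0.0065 and -0.056, the second with signals from 59.2 to 152 in AML1-ETO nucleofection alone. Among the assembly and regulatory genes, COX7A2L, which joins complexes III and IV into supercomplexes, fell, with 299.8, 372 and 332 in AML1-ETO nucleofection and 275 and 274 in luciferase nucleofection, against 406, 397 and 449.9 in AML1-ETO lipid and 391, 388 and 401 in luciferase lipid (-0.42 ± 0.10, adjusted p = 0.00823). Its groups did not overlap, and the test did not pass under either other scaling. The complex I assembly factor NDUFAF3 fell as well (-0.43 ± 0.14, adjusted p = 0.0391), and passed in 10 of 24 alternatives. NDUFAF1, NDUFAF4 and the inhibitor ATP5IF1 had -0.18, -0.17 and -0.34 (adjusted p = 0.394, 0.309 and 0.0741).

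Each transfected group was also set against untransfected cells, which serve as a shared control in these comparisons. With the AML1-ETO siRNA by nucleofection, 11 of 68 members fell (16.2%) and 0 rose, where 6.42% of all genes fell. The 11 were NDUFC1 (-1.24, adjusted p = 0.00376), NDUFB2 (-0.77), UQCRQ (-0.75), NDUFA13 (-0.72), NDUFA1 (-1.04), COX6A1 (-0.66), COX7A2 (-0.79), NDUFA3 (-0.61), UQCRB (-0.67), NDUFA6 (-0.72) and ATP5ME (-0.80, adjusted p = 0.0435). NDUFC1 had 291, 235 and 264 in AML1-ETO nucleofection, against 678 and 569.7 in untransfected cells. All AML1-ETO nucleofection arrays lay below both untransfected arrays for 47 members (69.1%), where 33.4% of all genes did so. The median difference was -0.37 over the members and -0.17 over all genes. Under quantile normalization these medians were -0.14 and -0.021 and 2 members fell (2.94%), where 2.4% of all genes did. With median centring they were -0.20 and 0.010 and 4 members fell (5.88%), where 2.91% of all genes did. The counts rested on few arrays: without untransfected replicate 1, 0 members passed, where 0.794% of all genes fell, and without untransfected replicate 3, 2 fell, where 1.69% of all genes did. Without AML1-ETO nucleofection replicate 1, 4 members fell, where 3.09% of all genes did, and without its replicate 3, 7 fell, where 3.15% did.

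With the luciferase siRNA by nucleofection, 3 of 68 members fell (4.41%), against 3.9% of all genes. They were NDUFA3 (-0.86 ± 0.17, adjusted p = 0.0149), NDUFA13 (-0.82 ± 0.17, 0.0192) and NDUFA1 (-1.10 ± 0.25, 0.0287). NDUFA13 had 621 and 527 in luciferase nucleofection, against 995 and 1030.2 in untransfected cells, and NDUFA1 had 458 and 389 in luciferase nucleofection, against 826 and 987 in untransfected cells. The groups did not overlap for these genes or for NDUFA3 (163 and 145 in luciferase nucleofection, against 323 and 239.5 in untransfected cells). None passed without untransfected replicate 1 or without luciferase nucleofection replicate 2, where 0.585% and 1.46% of all genes fell, and 1 fell without untransfected replicate 3, where 1.59% of all genes did. By lipid the members did not pass in either group: 0 of 68 with the AML1-ETO siRNA, where 0.111% of all genes passed and 1 member had an unadjusted p below 0.05 (5.84% of all genes), and 0 of 68 with the luciferase siRNA, where 0% of all genes passed and no member had an unadjusted p below 0.05 (3.72% of all genes; limma). The 95% intervals of the lipid groups lay within ±0.5 for 38 members with the AML1-ETO siRNA and 35 with the luciferase siRNA.

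Other mitochondrial genes, from lists chosen for their roles, were read in the same fit, leaving out ATP5IF1, a member that 1 of the lists also holds. None of the tested genes of 4 lists passed any knockdown comparison (limma), namely 16 electron carriers and assembly factors, 16 genes of pyruvate oxidation and the citric acid cycle, 12 regulators of mitochondrial biogenesis and 15 import and carrier genes. Few genes passed at all: 1.66% of all genes averaged over both methods, 2.62% by nucleofection, 0.125% by lipid and 0.0557% in the difference between methods. At an unadjusted p below 0.05 by nucleofection there were 1, 1, 1 and 4 genes of these lists in the order given, where 18.9% of all genes had such a p. By lipid there were 0, 1, 0 and 0, where 4.53% of all genes had. Averaged over both methods there were 0, 0, 1 and 3 (14.4% of all genes), and in the difference between methods 0, 0, 0 and 2 (10.8% of all genes). With nucleofection against lipid, 3 of 16 carriers and assembly factors fell, namely SURF1 (-0.40), TTC19 (-0.42) and UQCC1 (-1.05). In the citric acid cycle list 4 of 16 fell, IDH3G (-0.77), PDHB (-0.62), PDHA1 (-0.56) and IDH3B (-0.50). Among the regulators 2 of 12 fell, TFB2M (-0.97), a transcription factor of mitochondrial DNA, and YY1 (-0.43), and among import and carrier genes 4 of 15, TOMM20 (-0.97), VDAC1 (-0.58), TIMM13 (-0.34) and VDAC3 (-0.34). No gene of these lists rose in that comparison. In AML1-ETO nucleofection against untransfected cells TFB2M (-1.29), TOMM20 (-1.004), PDHB (-0.69) and TIMM13 (-0.57) fell, where 6.42% of all genes did. In luciferase nucleofection against untransfected cells TOMM20 (-0.91) fell, where 3.9% of all genes did. The shares with nucleofection against lipid lay on both sides of the 22% of all genes that fell.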

How the data were processed

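RNA of Kasumi-1 cells was measured on 14 single-colour oligonucleotide arrays. The authors deposited linear signal intensities per probe set, made with MAS5 per the submitters' processing notes (version not given in the sources used here) and scaled per array by factors given in the labels. Such scaling hides a shift shared by all RNAs. The arrays analysed here are numbered 1 and 2 in luciferase nucleofection and 1 and 3 in untransfected cells.

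Of 22283 probe sets, 19071 had 1 symbol in GEO's platform annotation, 1043 several and 2169 none; 9 probe sets whose several symbols include a member's were left out. Symbols are used as that annotation gives them. Each gene took the probe set with the highest mean; 21 members had 54 probe sets in all. Intensities below 20 were set to 20 and log2 taken, and the upper 60% of genes by mean were fitted with limma 3.58.1 (R 4.3.3; lmFit, eBayes) as 6 group means, with 8 residual degrees of freedom and Benjamini-Hochberg adjustment over 7178 genes. The arrays' number, not counting depth, limits precision. The script was tested on simulated data with known changes.

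Members and lists were chosen with earlier results of these data known. Named genes were up to 8 passing members per comparison with the smallest p, the 2 with the smallest p per complex, the brightest and dimmest of each complex, isoform groups, the catalytic core, members whose probe sets disagreed, and up to 4 passing genes of each other list; further members were named after their values were seen. Alternatives were quantile normalization, median centring, a floor of 64, no filter, averaged probe sets, no shared probe sets, trended robust variance, only the compared arrays, a replicate block and leaving out each array. Same-numbered arrays showed no shared deviation from their group means: over 22 same-numbered pairs of arrays, deviations correlated at -0.29 to 0.053. In groups of 2 arrays the deviations mirror each other, and the labels do not say whether same-numbered arrays were made together, so a pairing cannot be told from this. Promoters were read from RefSeq (GRCh38.p14).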

Additional observations from a re-analysis of the deposited data

Results flagged for a closer look

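ATP5F1D, the delta subunit of the F1 head of the ATP synthase, had knockdown differences of opposite sign by the 2 methods on the probe set used. The AML1-ETO arrays lay below the luciferase arrays by nucleofection (81.8, 81.8 and 81.2 in AML1-ETO, against 115 and 100.3 in luciferase) and above them by lipid (129.8, 117 and 119 in AML1-ETO, against 105, 111 and 105 in luciferase), on every array. The difference between methods was -0.58, which did not pass the limma test over all genes (adjusted p = 0.319). Its second probe set gave -0.42 (adjusted p = 0.707 over all probe sets, where the probe set used had 0.0461), and the probe sets disagreed in sign in AML1-ETO nucleofection against untransfected cells (0.13, against -0.45 for the probe set used).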

How the results depend on the processing

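Counts are of members past the limma test, out of 68 unless another number is given. Brackets with a single share give that of all genes that fell in the same setting. Under quantile normalization there were 1 for the knockdown by nucleofection (1.62%) and 1 for luciferase nucleofection against untransfected cells (2.95%). AML1-ETO nucleofection against untransfected cells gave 2 (2.4%). Nucleofection against lipid gave 8, of which 6 fell and 2 rose, where 8.8% of all genes fell and 6.98% rose. With median centring the knockdown by nucleofection gave 1 (0.947%) and AML1-ETO nucleofection against untransfected cells 4 (2.91%). Nucleofection against lipid then gave 9, of which 7 fell and 2 rose, where 9.31% of all genes fell and 8.87% rose. A floor of 64, with 69 members tested, gave 2 for the knockdown by nucleofection (1.66%) and 1 for the difference between methods (0.279%). It gave 7 (4.12%) and 17 (6.41%) for luciferase and AML1-ETO nucleofection against untransfected cells. Without the filter, with 73 members tested, the first 3 of these counts were 2 (1.41%), 1 (0.267%) and 5 (2.51%). Averaged probe sets gave 1 for the knockdown by nucleofection (1.2%) and 6 for luciferase nucleofection against untransfected cells (4.65%). Without shared probe sets, 44 members were tested: nucleofection against lipid gave 11 (25%, where 15.5% of all genes fell) and AML1-ETO nucleofection against untransfected cells 5 (11.4%, where 3.13% fell). A trended robust variance gave 2 for the knockdown by nucleofection (1.66%). It gave 14 (6.52%) and 25 (10%) for luciferase and AML1-ETO nucleofection against untransfected cells. Fits on the compared arrays alone gave 0 (0%) and 2 (1.71%) for the last 2. In the same fits, nucleofection against lipid gave 20 (29.4%, where 20.7% of all genes fell). That comparison gave 34 with the trended robust variance (50%, where 25.1% fell) and 26 with averaged probe sets (38.2%, where 22.1% fell). With a floor of 64 it gave 25 of 69 (36.2%, where 17.9% fell), and without the filter 23 of 73 (31.5%, where 11.2% fell). Nucleofection against lipid gave 3 with the luciferase siRNA alone (7.04%) and 11 with the AML1-ETO siRNA alone (11.6%), both added after the data were seen. ATP5F1D turned to 0.0038 with the luciferase siRNA. The causes were not tested.

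With the replicate number as a block, luciferase and AML1-ETO nucleofection against untransfected cells gave 1 and 3 members, where 1.5% and 3.25% of all genes fell. Nucleofection against lipid gave 16, where 17.8% of all genes fell, and the knockdown comparisons gave 0. Same-numbered arrays showed no shared deviation. Leaving out 1 array gave 0 to 1 members for the knockdown averaged over methods and 0 to 1 by nucleofection. Over these runs 0.822% to 1.57% and 0.724% to 3.29% of all genes passed. By lipid and for the difference between methods the count was 0. Nucleofection against lipid gave 12 to 23, where 16.4% to 25.1% of all genes passed in either direction. Against untransfected cells the ranges were 0 to 4 for luciferase nucleofection, 0 to 11 for AML1-ETO nucleofection and 0 for both lipid groups. For the 2 nucleofection groups, 0.78% to 5.96% and 1.42% to 10.1% of all genes passed in these runs. Signals near the floor of 20, such as those of COX6A2, limit what small differences can be seen.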
